A study of Mus musculus with 6 samples.

Results

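The Eya and Six-family genes were followed as a set of 9 members, Eya1, Eya2, Eya3, Eya4, Six2, Six3, Six4, Six5 and Six6, out of 22367 protein-coding genes on chromosomes 1 to 19 and X and Y. They were chosen by gene family, and the study names Eya1, which it selected in part by accessibility in these same cells, so that the pattern of Eya1 is a description and not independent evidence. Every peak of an ATAC-seq list that overlapped a member, or the 20 kb on either side of it, was taken. ATAC-seq marks accessible chromatin as places where the Tn5 transposase inserts sequencing adapters. Overlapping peaks of the lists were merged into regions, and 50 of 65518 regions lay in the 9 windows, which span 993 kb. Such a list is one row per open site, with its start and end on the mouse assembly mm9, and it holds no height, score or read number.

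The 6 libraries came from 3 states of one mouse cell line of strain 129SV, J1 embryonic stem cells (ESCs) and the expanded potential stem cells made from them by the Deng protocol (D-EPSCs) or the Liu protocol (L-EPSCs). ESCs grew in serum with LIF, CHIR99021 and PD0325901. D-EPSCs grew in N2B27 with some serum replacement, LIF, CHIR99021, minocycline hydrochloride and dimethindene maleate. L-EPSCs grew in serum replacement medium with LIF, SB203580, JNK inhibitor VIII, XAV939, A-419259, PD0325901 and CHIR99021. LIF and the GSK3 inhibitor CHIR99021 were thus common to the 3 states, and PD0325901, a MEK inhibitor, was absent from D-EPSC medium alone. Each state had 2 technical replicates, which the authors deposited as a single list of 28965 peaks for ESCs, 50225 for D-EPSCs and 46601 for L-EPSCs. No difference below therefore has a replicate check, the depth of each list is unknown, and a longer list gives more peaks at most genes. A site missing from a list cannot be told apart from a site open in fewer of the cultured cells. The pluripotency genes Pou5f1 and Sox2 carried start peaks in every list, and Esrrb and Nanog carried them in both EPSC lists only. The paper nevertheless reports less Esrrb expression in EPSCs than in ESCs, and slightly less Nanog mRNA with similar protein. A peak missing from the ESC list thus need not mean closed chromatin, at these genes or at the members. Whether the ESC list misses open sites was not tested.

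Eya and Six-family proteins work as a pair. Six-family proteins are homeodomain transcription factors that bind DNA, and Eya proteins, which carry a tyrosine phosphatase domain and do not bind DNA themselves, are recruited by them as coactivators. Together with Pax and Dach proteins they form a network first worked out in the fly eye, and in mammals they are used in the inner ear, kidney, muscle, eye and cranial placodes. Pluripotent cells are not a tissue in which the network is known to act.

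The sequences that follow show the sites on which the members differed between lists. Each is 300 bp of mm9 at the centre of a region, on the plus strand, with letters of a searched motif in capitals. The motifs, read on both strands, were ATGCAAAT (POU octamer), ATCAAAG (TCF/LEF), TCAGGTTTC (MEF3, a site bound by Six-family proteins), TGATAC (a core bound by Six-family proteins), AGGTCA (nuclear receptor half-site), GGGGAGGGG (a G-rich string of the Zfp281 kind) and AACAATGG (SOX). None of these strings is contained in another. The first sequence is the Eya1 start region, found in all 3 lists and shown as the reference for the others, at chr1:14299812-14300111, and holds none of the motifs.
Eya1 start: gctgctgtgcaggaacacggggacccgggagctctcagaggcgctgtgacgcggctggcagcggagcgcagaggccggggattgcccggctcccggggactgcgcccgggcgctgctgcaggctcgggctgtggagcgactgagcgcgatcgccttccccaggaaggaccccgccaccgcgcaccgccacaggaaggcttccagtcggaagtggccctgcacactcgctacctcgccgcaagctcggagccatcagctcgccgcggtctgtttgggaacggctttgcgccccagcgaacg
The next is the centre of the Eya1 region found in ESCs only, the single such region of all 9 members, at chr1:14215762-14216061.
Eya1 ESC only: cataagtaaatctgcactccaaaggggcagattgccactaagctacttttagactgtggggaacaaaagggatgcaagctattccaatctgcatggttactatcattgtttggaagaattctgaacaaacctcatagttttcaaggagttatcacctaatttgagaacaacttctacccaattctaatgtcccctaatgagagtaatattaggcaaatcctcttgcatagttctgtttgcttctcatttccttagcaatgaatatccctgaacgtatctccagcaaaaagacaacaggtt
The 300 bp around the Eya1 site found in L-EPSCs only (chr1:14284446-14284745) hold a TCF/LEF string. The site itself is 175 bp wide (chr1:14284508-14284682), so part of the printed sequence lies outside it, while the string lies inside.
Eya1 L-EPSC only: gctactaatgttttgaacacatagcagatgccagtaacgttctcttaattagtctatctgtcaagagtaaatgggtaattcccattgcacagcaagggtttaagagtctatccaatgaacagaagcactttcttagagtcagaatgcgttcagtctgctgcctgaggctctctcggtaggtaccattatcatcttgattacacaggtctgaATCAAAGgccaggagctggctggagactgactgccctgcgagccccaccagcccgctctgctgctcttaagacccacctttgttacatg
For the other members, the widest sites with no ESC peak are shown for the 4 genes where these were widest. They are the site behind Six6 (chr12:74046523-74046822, both EPSC lists), the site before Eya2 (chr2:165478795-165479094, D-EPSCs), the exonic site of Six4 (chr12:74204735-74205034, both EPSC lists), which holds 2 nuclear receptor half-sites, and the site behind Six2 (chr17:86079189-86079488, both EPSC lists).
Six6 downstream: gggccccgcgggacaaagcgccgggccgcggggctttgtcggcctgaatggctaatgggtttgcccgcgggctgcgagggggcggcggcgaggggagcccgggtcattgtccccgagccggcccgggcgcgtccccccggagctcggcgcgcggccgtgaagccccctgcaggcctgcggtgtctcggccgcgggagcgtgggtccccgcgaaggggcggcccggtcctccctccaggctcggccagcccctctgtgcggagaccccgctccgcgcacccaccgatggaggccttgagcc
Eya2 upstream: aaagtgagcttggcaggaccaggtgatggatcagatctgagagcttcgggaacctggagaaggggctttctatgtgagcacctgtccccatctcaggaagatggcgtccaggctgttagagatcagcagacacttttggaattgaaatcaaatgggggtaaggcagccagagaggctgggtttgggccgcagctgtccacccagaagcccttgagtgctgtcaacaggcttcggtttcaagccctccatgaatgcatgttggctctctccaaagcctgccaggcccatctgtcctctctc
Six4 exon: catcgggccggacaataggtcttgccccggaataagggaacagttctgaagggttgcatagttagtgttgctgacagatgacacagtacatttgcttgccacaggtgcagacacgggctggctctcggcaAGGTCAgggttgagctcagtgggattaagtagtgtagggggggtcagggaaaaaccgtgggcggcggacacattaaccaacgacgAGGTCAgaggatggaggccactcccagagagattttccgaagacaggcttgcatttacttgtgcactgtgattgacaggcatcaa
Six2 downstream: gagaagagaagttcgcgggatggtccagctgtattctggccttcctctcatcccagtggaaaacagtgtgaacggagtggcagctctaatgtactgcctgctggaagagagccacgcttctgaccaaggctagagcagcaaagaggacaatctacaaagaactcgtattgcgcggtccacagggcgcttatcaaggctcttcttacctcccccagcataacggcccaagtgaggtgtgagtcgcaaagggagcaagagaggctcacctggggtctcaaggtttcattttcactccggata

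Across the 9 windows there were 19 ESC peaks, 43 D-EPSC peaks and 33 L-EPSC peaks. With the EPSC lists shortened to their widest 28965 peaks, the D-EPSC number was 27 and the L-EPSC number 24. The ESC list has this length already, so it keeps its narrow peaks while the EPSC lists lose theirs. Lists of equal length thus do not share a lowest width, here or below. In the full lists the peaks covered 7220 bp (ESCs), 20268 bp (D-EPSCs) and 14595 bp (L-EPSCs), or 2.81 and 2.02 times the ESC bases in D-EPSCs and L-EPSCs. The whole lists covered 1.86 and 1.67 times the ESC bases. In peak numbers the ratios were 2.26 (95% interval 1.33 to 3.86, counting error only) and 1.74 (0.995 to 3.03), against 1.73 and 1.61 for the whole lists, values that lie inside these intervals. Of the members, 8 had more D-EPSC than ESC peaks and also more L-EPSC than ESC peaks, and Eya1 was the exception in both comparisons. Over 18798 protein-coding genes with any region in their window, 67.3% had more D-EPSC than ESC peaks and 62.4% more L-EPSC than ESC peaks, so most genes share the direction of those 8 members. With the widest 28965 peaks of each list, 6 members had more D-EPSC than ESC peaks, against 32.7% of those genes. Between the EPSC lists, 4 members (Eya2, Eya3, Six4 and Six5) had more D-EPSC than L-EPSC peaks, against a background of 37%. Another 4 had equal numbers, and Eya1 had fewer. With lists of equal length the number was again 4, against 26.6%, but the genes were Eya2, Eya4, Six2 and Six4, and Eya3 had fewer D-EPSC than L-EPSC peaks.

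**Figure D1:**
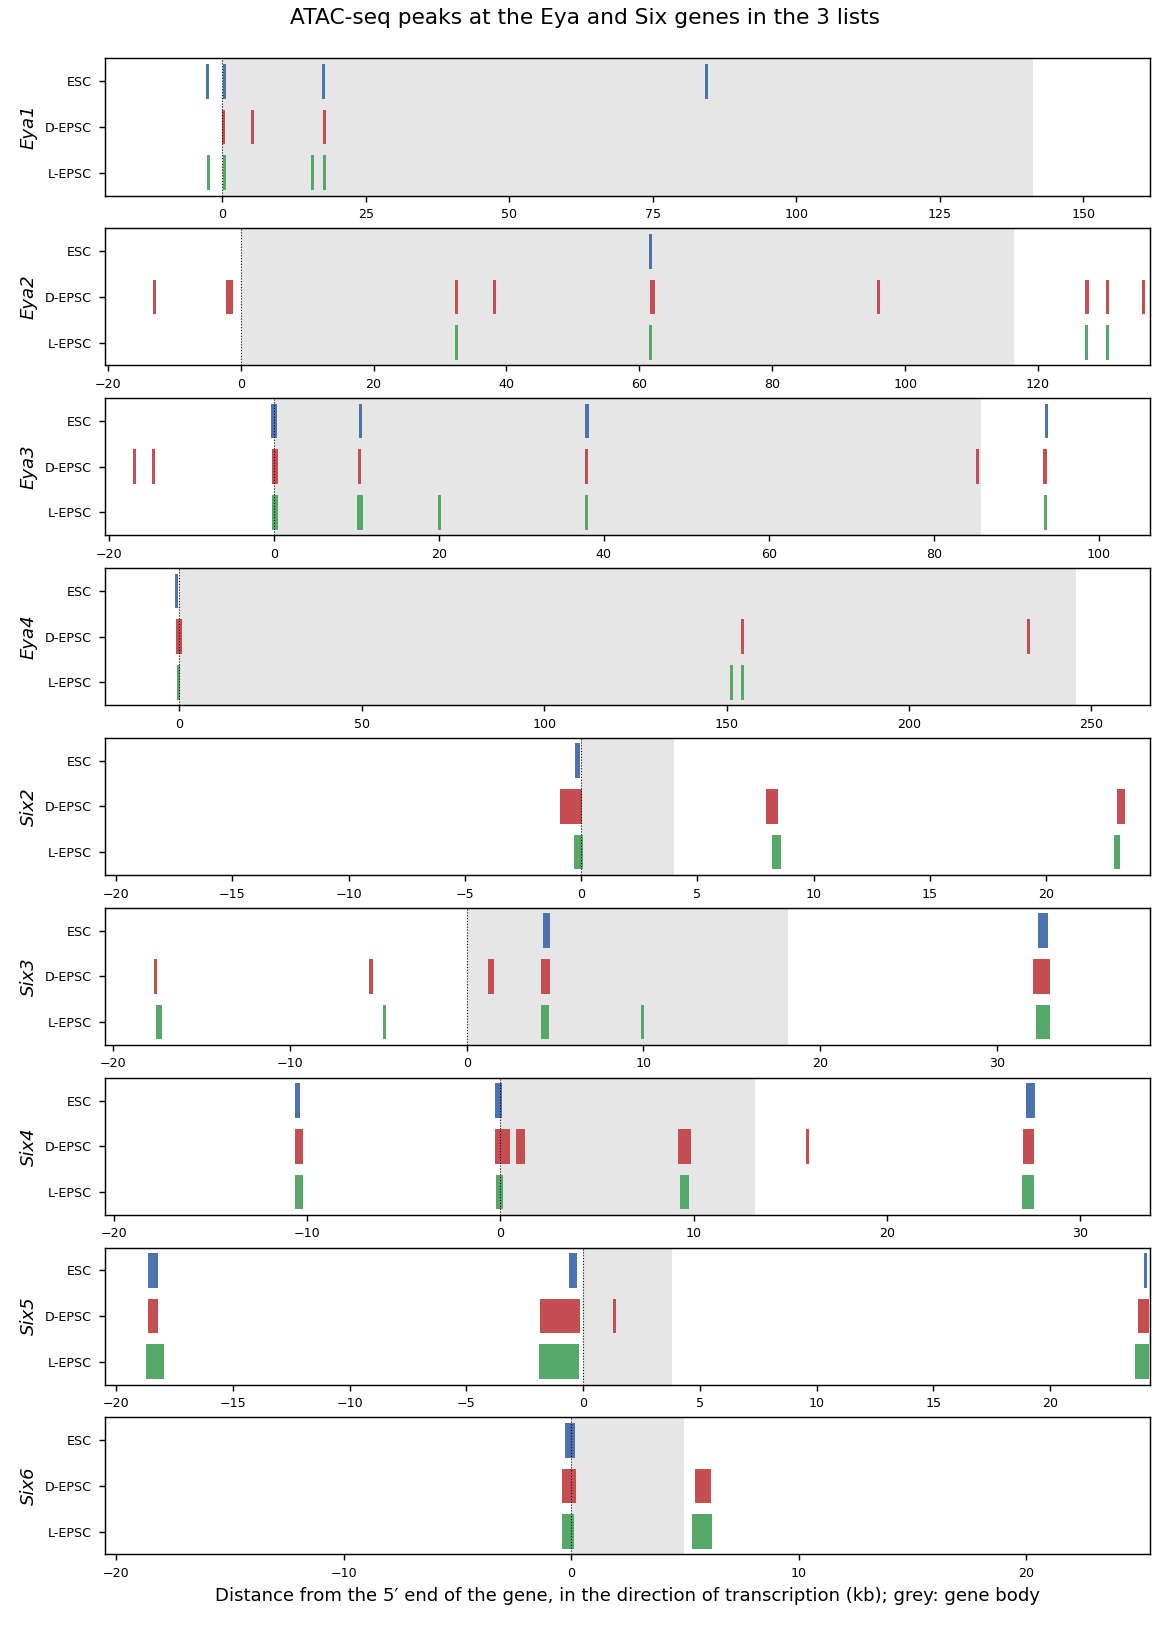
Peaks of the ESC, D-EPSC and L-EPSC lists (rows of each panel) at each member, against distance in kb from the 5′ end of the gene in the direction of transcription. Grey marks the gene body, the dotted line its 5′ end, and peaks too narrow to see are drawn at a minimum width. Eya1 alone has an intronic ESC peak with no EPSC peak near it, centred 84370 bp from the 5′ end, and the D-EPSC row of Eya2 holds 10 peaks against 1 in the ESC row.

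**Figure D2:**
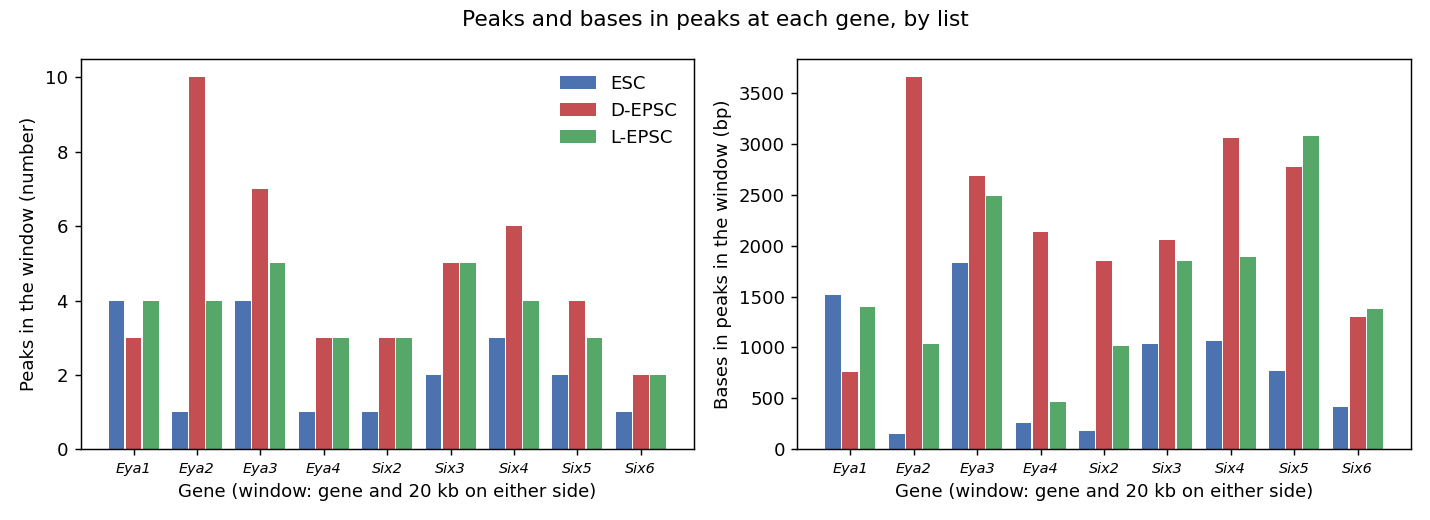
Number of peaks (left) and bases in peaks in bp (right) in the window of each member, with a bar for each of the 3 lists. The ESC bar is the lowest of the 3 for every member except Eya1, where ESCs had 4 peaks and 1511 bp.

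Sorted by the lists that hold a peak, 18 of the 50 regions (36.0%, 95% Wilson interval 24.1 to 49.9, counting error only) were in all 3 lists, against 33.2% of all regions. Regions in both EPSC lists only numbered 9 (18.0%, 9.77 to 30.8), against 18.4%. Both shares were near those of the genome. D-EPSCs alone had 16 regions (32.0%, 20.8 to 45.8), against 22.3%, and L-EPSCs alone had 5 (10.0%, 4.35 to 21.4), against 15.8%. A single region was found in ESCs only (5.12% of all regions), a single region in ESCs and L-EPSCs only (2.92%), and none in ESCs and D-EPSCs only (2.3%), and 0 of 50 has a Wilson upper bound of 7.13%. Each of these 7 genome shares lay inside the interval of the members. With lists of equal length, D-EPSCs alone had 6 member regions, L-EPSCs alone 2 and both EPSC lists only 5, and regions with an ESC peak that were not in all 3 lists numbered 6 in place of 2. The ESC peaks were overlapped by a D-EPSC peak in 17 of 19 cases (89.5%, 68.6 to 97.1) and by an L-EPSC peak in 17 of 19, with 81.4% and 82.7% for all ESC peaks. An overlap of 1 bp sufficed here, and where 50% of both peaks had to overlap, the shares were 47.4% and 63.2%. In the reverse direction, 18 of 43 regions with a D-EPSC peak had an ESC peak (41.9%, 28.4 to 56.7), and 19 of 33 with an L-EPSC peak did (57.6%, 40.8 to 72.8). Over all regions these shares were 46.6% and 51.4%, inside both intervals. Over the 18 regions in all 3 lists, the D-EPSC peak was wider than the ESC peak in 14 and the L-EPSC peak in 12, against 72.1% and 70.2% of all regions in the 3 lists, so the members' counts were near the background. They had median widths of 372.5 bp for ESCs, 549.5 bp for D-EPSCs and 453.5 bp for L-EPSCs. Of the 11 such regions away from member starts, 8 had the wider peak in D-EPSCs and 8 in L-EPSCs when set against ESCs, and D-EPSCs exceeded L-EPSCs in 5. One region at the edge of the Six5 window had its ESC peak 236 bp beyond the edge, so regions with an ESC peak number 20 and ESC peaks 19.

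**Figure D3:**
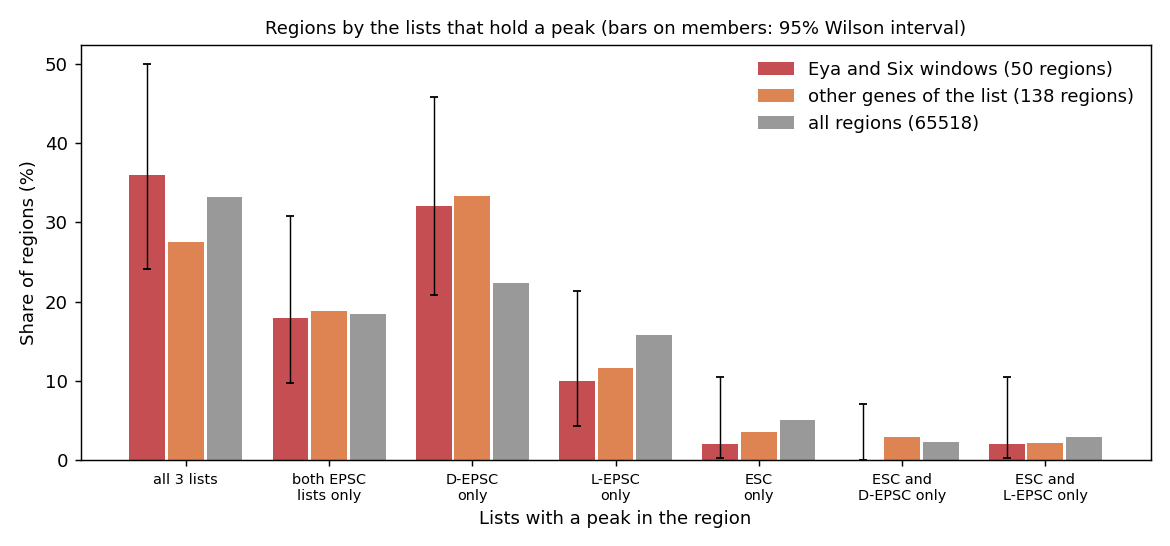
Share of regions in percent by the lists that hold a peak in them, for the Eya and Six-family windows (50 regions, error bars are 95% Wilson intervals), for 24 other genes of the network and its tissues (138 regions) and for all 65518 regions. The D-EPSC only bars stand at 32.0% and 33.3% for the gene sets and 22.3% for all regions.

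The regions divided by position as follows. At a start, meaning no more than 1 kb from where a coding transcript of the member begins, were 8 regions, and 7 of them were in all 3 lists. Introns held 17 regions, of which 5 were in all 3 lists, and exons held 3, none of which had an ESC peak. The 20 kb before the genes held 11 regions and the 20 kb behind them another 11, of which 2 and 4 were in all 3 lists. Regions at a start were the widest, with a median of 831.5 bp, and regions in introns had a median of 282 bp. Of the 22 regions found in a single list, 16 came from D-EPSCs, and their widths ran from 117 to 654 bp with a median of 184 bp. Of the 22, 7 were within 20 bp of the narrowest peak in their list. Base composition followed position, and the 8 start regions had medians of 61.7% GC and 0.734 for observed over expected CpG. All regions at coding starts had 62.6% and 0.728. The 38 member regions away from any coding start had 53.3% and 0.274, close to 51.8% and 0.233 for all such regions.

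Eya1 and Eya4 have long gene bodies, whereas Six2, Six5 and Six6 are compact. The 4 Eya windows span 749 kb and held 28 regions, or 3.74 per 100 kb, and the 5 Six-family windows span 244 kb and held 22 regions, or 9.01 per 100 kb. An ESC peak was in 10 of the 28 Eya regions (35.7%, 20.7 to 54.2) and in 10 of the 22 Six-family regions (45.5%, 26.9 to 65.3), and these intervals overlap. D-EPSCs alone held 11 of the Eya regions and 5 of the Six-family regions. The median over members was 2.27 ESC peaks per 100 kb of window, 6.39 D-EPSC peaks and 4.45 L-EPSC peaks, and the median over all protein-coding genes was 2.18, 3.74 and 3.46. The ESC value was thus near that of all genes, while the D-EPSC value of the members was the one farthest above it.

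Of the 9 members, 7 had a peak at a start in each list. The background share was 51.5% of protein-coding genes for ESCs, 63.4% for D-EPSCs and 60.7% for L-EPSCs, and 50.4% had one in all 3 lists. The same 7 members, Eya1, Eya3, Eya4, Six2, Six4, Six5 and Six6, had the start peak in all 3 lists. Eya2 and Six3 had one in no list, as did 35.1% of protein-coding genes. Within 1 kb the lists thus had start peaks at the same genes, but not at other distances. Within 500 bp, 6 members had an ESC, 7 a D-EPSC and 7 an L-EPSC peak, and within 2500 bp the numbers were 7, 9 and 8. With lists of equal length and 1 kb they were 7, 7 and 6.

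**Figure D4:**
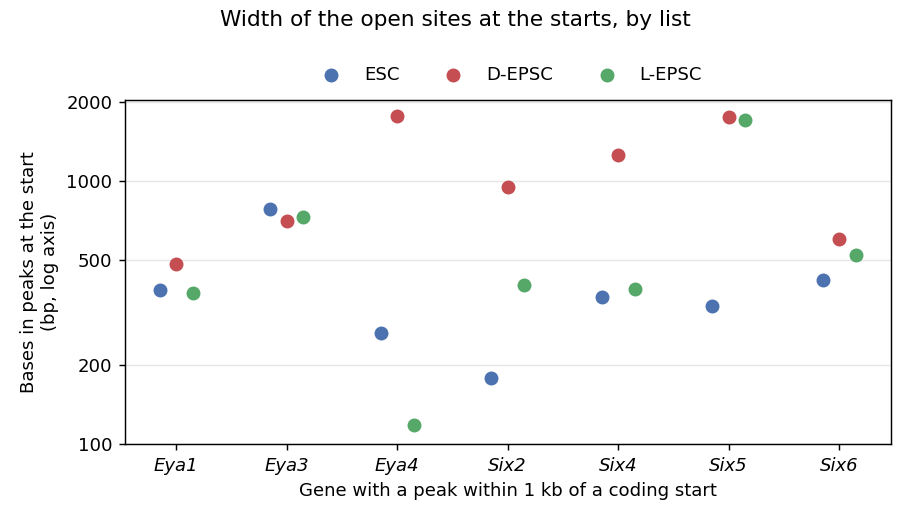
Bases in peaks within 1 kb of a coding start, in bp on a log axis, for the 7 members with such a peak and the 3 lists. The D-EPSC point is the highest at every gene except Eya3, and that of Six4 sums 2 peaks. At Eya4 the points are farthest apart, with 1769 bp for D-EPSCs and 118 bp for L-EPSCs.

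Widths were compared in the start regions that all 3 lists shared. The D-EPSC peak was wider than the ESC peak at 6 of 7 members, against 81.5% of 10044 start regions with 1 peak in each list. The L-EPSC peak was wider than the ESC peak at 4 of 7, against 76.7%. For D-EPSCs the direction was thus that of most promoters, except at Eya3. For L-EPSCs, Eya1, Eya3 and Eya4 went the other way. The size of the ratio varied by member. The ratio of D-EPSC to ESC width was 6.7 at Eya4, 5.33 at Six2, 5.19 at Six5, 2.14 at Six4, 1.43 at Six6, 1.26 at Eya1 and 0.9 at Eya3. Its median over the 10044 start regions was 1.34, with 10% of them above 2.75. Eya4, Six2 and Six5 were therefore in the upper tail, and 58, 157 and 175 of the 10044 regions had a higher ratio. For L-EPSCs the ratio was 5.05 at Six5, 2.25 at Six2, 1.25 at Six6, 1.07 at Six4, 0.974 at Eya1, 0.931 at Eya3 and 0.447 at Eya4, and the median of all start regions was 1.26. Eya4 and Six5 thus stood at opposite ends for L-EPSCs. At Eya4, however, the ESC and L-EPSC peaks did not overlap, so the ratio of 0.447 sets separate sites side by side. The signal under a wide peak is not given in the lists, so width here is the length of DNA the caller joined into one open site.

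**Figure D5:**
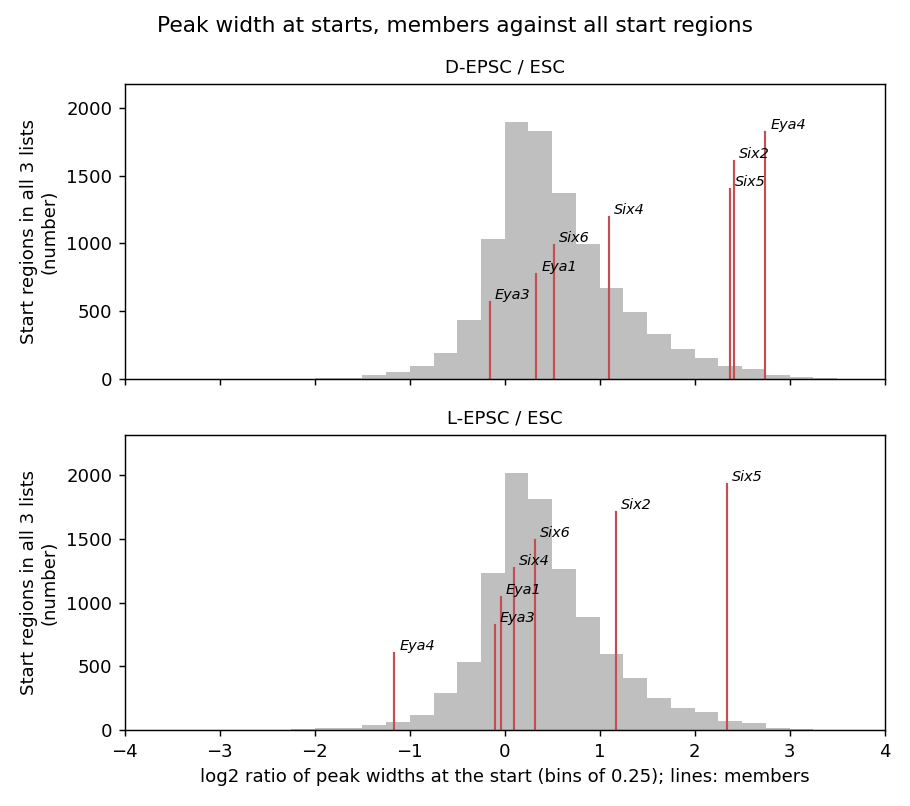
Number of start regions by the log2 ratio of peak widths, D-EPSC to ESC above and L-EPSC to ESC below, over 10044 regions with 1 peak in each of the 3 lists (grey), with red lines at the members. Line heights only keep the names apart. Eya4, Six2 and Six5 lie in the right tail above, and Six5 in the right tail and Eya4 in the left tail below. The ESC and L-EPSC peaks of Eya4 do not overlap.

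Eya1, on the minus strand of chromosome 1 (14159035 to 14300281), encodes the coactivator whose loss causes branchio-oto-renal syndrome in people and absent ears and kidneys in mice. It had 4 ESC, 3 D-EPSC and 4 L-EPSC peaks, covering 1511, 764 and 1395 bp. It was the member on which both EPSC lists covered fewer bases than ESCs, an order seen in 6.05% of the windows with any region. It was also the member with fewer D-EPSC than ESC peaks, as in 6.87% of windows. In the gene body alone each list had 3 peaks, so that difference in number came from the flank. Eya1 was also the one member with a region found in ESCs only, as in 15.1% of windows. With the widest 28965 peaks of each list, Eya1 had 4 ESC peaks, 1 D-EPSC peak and 3 L-EPSC peaks, and 25.1% of windows had fewer D-EPSC than ESC peaks. That setting drops D-EPSC peaks of 160 and 119 bp at Eya1 but keeps an ESC peak of 221 bp.

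The Eya1 start itself differed little. Its peak was 384 bp (ESCs), 485 bp (D-EPSCs) and 374 bp (L-EPSCs). The D-EPSC peak reached from 36 bp before to 448 bp behind the nearest annotated start, the ESC peak from 131 to 514 bp behind it, and the L-EPSC peak from 88 to 461 bp behind it. The region overlapped an exon but no coding sequence, and had 60.4% GC. Sites away from the start carried the difference. A region 2.22 kb before the start (chr1:14302505-14302927) had an ESC peak of 221 bp and an L-EPSC peak of 381 bp and no D-EPSC peak, and the nearest D-EPSC peak, that of the start, was 2269 bp from it. A region in intron 3 of the longest coding transcript (chr1:14282264-14282815) was in all 3 lists, with 514 bp (ESCs), 465 bp (L-EPSCs) and 160 bp (D-EPSCs). It lies 8.2 kb before the start of the shorter transcript and holds a TGATAC string. The region found in ESCs only (chr1:14215716-14216107) was 392 bp wide, wider than 53.5% of ESC peaks, in intron 11 and 58.0 kb inside the gene from the nearest start. The nearest D-EPSC peak was 66305 bp and the nearest L-EPSC peak 66157 bp away. It had a GC content of 41.1%, and its 400 bp centre held an AACAATGG string, outside the 300 bp printed above. The EPSC lists had 1 site each that ESCs lacked, and both were narrow, with 175 bp in L-EPSCs (chr1:14284508-14284682, intron 3) and 119 bp in D-EPSCs (intron 1). These are wider than 17.0% of L-EPSC peaks and 2.45% of D-EPSC peaks.

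The genes whose bases in peaks over the 3 lists were most like those of Eya1 were Ccdc70, Capsl and Mtap7d2. Likeness was the Euclidean distance of log2(bases + 1) over the 3 lists, and it was 0.118, 0.12 and 0.149. Ccdc70 had 1606 bp (ESCs), 753 bp (D-EPSCs) and 1324 bp (L-EPSCs).

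Eya2, on chromosome 2 (165480798 to 165597227), which is expressed in placodes and in muscle progenitors, showed the opposite picture. It had 1 ESC peak, 10 D-EPSC peaks and 4 L-EPSC peaks, covering 155, 3652 and 1037 bp. With the widest 28965 peaks of each list these numbers were 1, 5 and 2. In the full lists, D-EPSCs thus had the most peaks of any list at any member, and every Eya2 region had a D-EPSC peak. The ESC peak of 155 bp sat in intron 7 (region chr2:165542349-165543129), where D-EPSCs had 741 bp and L-EPSCs 135 bp. Only 4.4% of ESC peaks were narrower than this one. No list had a peak within 1 kb of the 2 annotated coding starts. D-EPSCs had peaks of 654 bp (chr2:165478618-165479271) and 117 bp just before the first start, with the nearer edge 1386 bp away, while the nearest L-EPSC peak was 21170 bp and the nearest ESC peak 52061 bp from a start. Both EPSC lists shared a site over a coding exon (chr2:165513118-165513446), with 329 bp for D-EPSCs and 283 bp for L-EPSCs. They also shared a site behind the gene, with 604 and 372 bp, and one inside the neighbouring gene Zmynd8. D-EPSCs alone had 2 more intronic sites of 282 and 220 bp.

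Eya3, on chromosome 4 (132194902 to 132280680), the most broadly expressed of the Eya genes, had 4 ESC, 7 D-EPSC and 5 L-EPSC peaks. With lists of equal length these were 4, 4 and 5, so D-EPSCs no longer had more than ESCs. All 4 ESC sites were in both EPSC lists. Its start peak was the widest ESC start peak of the members, at 781 bp, with 703 bp for D-EPSCs and 727 bp for L-EPSCs, and spanned the start in each list. Intronic sites were shared at 10.1 kb (298, 401 and 697 bp for ESCs, D-EPSCs and L-EPSCs) and at 37.7 kb (423, 298 and 310 bp) from a start. The other shared site, of 327, 490 and 421 bp, was at the start of the neighbouring gene Xkr8. The 3 sites of D-EPSCs alone were 386 and 193 bp wide in front of the gene and 214 bp wide in its last exon, outside the coding sequence. L-EPSCs alone had 1 intronic site of 334 bp.

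Eya4, on the minus strand of chromosome 10 (22823974 to 23069701), is needed for hearing and in the heart. It had 1 ESC peak and 3 peaks in each EPSC list, the sparsest window per length. With lists of equal length it had 1 ESC, 1 D-EPSC and no L-EPSC peak, so neither EPSC list had more peaks than ESCs. Its start region of 1769 bp (chr10:23068879-23070647) was a single D-EPSC peak, which reached from 946 bp before to 822 bp behind the start. The ESC peak of 264 bp covered only 884 to 621 bp before the start, and the L-EPSC peak of 118 bp only 332 to 215 bp before it. These narrow peaks did not overlap each other and were joined through the D-EPSC peak. The D-EPSC peak was wider than 98.7% of D-EPSC peaks at coding starts, while no peak of the L-EPSC list was narrower than 118 bp. The ratio of D-EPSC to L-EPSC width was 15.0, and none of the 10044 start regions had a higher one. Deep in the gene, intron 3 held a site of both EPSC lists (244 bp for D-EPSCs and 174 bp for L-EPSCs) and a site of L-EPSCs alone of 175 bp, and intron 13 a D-EPSC site of 124 bp. The nearest ESC peak to each of these was that of the start, at 151931 bp or more.

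Six2, on the minus strand of chromosome 17 (86083608 to 86087594), keeps nephron progenitors of the kidney from differentiating. It had 1 ESC peak and 3 in each EPSC list, and the EPSC lists had the same 3 sites. With lists of equal length the numbers were 1 (ESCs), 3 (D-EPSCs) and 2 (L-EPSCs). The start peak was 178 bp (ESCs), 949 bp (D-EPSCs) and 401 bp (L-EPSCs). The ESC peak lay 248 to 71 bp before the start, the L-EPSC peak from 323 bp before to 77 bp behind it, and the D-EPSC peak from 912 bp before to 36 bp behind it. The D-EPSC peak thus extended mainly upstream. Behind the gene, sites at chr17:86079014-86079662 (530 bp for D-EPSCs and 370 bp for L-EPSCs) and chr17:86064183-86064672 (373 and 246 bp) had their nearest ESC peak 8003 and 18308 bp away.

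Six3, on chromosome 17 (86012948 to 86031153), which sits beside Six2 and patterns the forebrain and eye, had 2 ESC peaks and 5 in each EPSC list, or 2 and 3 with lists of equal length. No list had a peak within 1 kb of its 3 annotated coding starts. The nearest was a D-EPSC peak of 323 bp in intron 1 at 1196 bp, followed by an L-EPSC peak of 118 bp at 2476 bp and the ESC peak at 2514 bp. The sites in all 3 lists were in intron 1 (chr17:86017144-86017676), with 427, 533 and 442 bp for ESCs, D-EPSCs and L-EPSCs, and behind the gene (chr17:86045012-86045965), with 609, 942 and 787 bp. In front of the gene, both EPSC lists had a site at 17.3 kb, and each had a narrow site of its own, D-EPSCs of 124 bp and L-EPSCs of 151 bp. The 5 Six3 regions within 5.36 kb of a start had a GC content of 62.7 to 67.5%.

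Six4, on the minus strand of chromosome 12 (74201246 to 74214401), acts in muscle and kidney. It had 3 ESC, 6 D-EPSC and 4 L-EPSC peaks, and all 3 ESC sites were in both EPSC lists. Its start region (chr12:74213917-74214690) had 361 bp (ESCs), 774 bp (D-EPSCs) and 387 bp (L-EPSCs), and its 400 bp centre held the MEF3 string and the G-rich string. D-EPSCs alone had another 475 bp from 612 bp behind the start, overlapping coding sequence. Another coding exon carried a site of both EPSC lists (chr12:74204558-74205210), with 653 bp for D-EPSCs and 496 bp for L-EPSCs, shown above with its half-sites. The upstream shared site was at the start of the neighbour Mnat1, and the downstream one (450, 566 and 598 bp) held the POU octamer, the only member region to do so.

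Six5, on chromosome 7 (19679893 to 19683694), directly follows Dmpk, the gene of the repeat expansion in myotonic dystrophy. It had 2 ESC, 4 D-EPSC and 3 L-EPSC peaks. The start region (chr7:19678008-19679769) ended 124 bp before the start and lay over Dmpk. Its peak was 336 bp (ESCs), 1743 bp (D-EPSCs) and 1698 bp (L-EPSCs). The D-EPSC peak began 1866 bp and the L-EPSC peak 1885 bp before the start, whereas the ESC peak began 587 bp before it. The EPSC widths were above those of 98.5% of D-EPSC and 98.9% of L-EPSC peaks at coding starts. The outer shared regions were at the starts of Dmwd and Gm4969, and D-EPSCs alone had a site of 153 bp in intron 1.

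Six6, on chromosome 12 (74040932 to 74045886), a regulator of the retina and pituitary, had 1 ESC peak and 2 in each EPSC list. The start peak, shared with the start of 4930447C04Rik, was 419 bp (ESCs), 600 bp (D-EPSCs) and 523 bp (L-EPSCs) and spanned the start in each list. Just behind the gene, a region of 859 bp (chr12:74046243-74047101) was 699 bp wide for D-EPSCs and 859 bp for L-EPSCs. Its nearest ESC peak, that of the start, was 5144 bp away. It was the widest member region with no ESC peak and the one of highest GC content, at 68.8%. Both EPSC lists had a region of this kind, without an ESC peak, at 6 of 9 members (Eya2, Eya4, Six2, Six3, Six4 and Six6), and 52.3% of windows had one.

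Motifs in the 400 bp centres were mostly as frequent as in all regions. AGGTCA was in 12 of 50 member regions (24.0%, against 24.6% of all regions), TGATAC in 4 (8.0%, against 6.71%), ATCAAAG in 2 (4.0%, against 4.88%), and the POU octamer and the SOX string in 1 each (2.0%, against 2.85% and 1.85%). GGGGAGGGG was in 8 (16.0%, against 7.84%). The MEF3 string was in 3 (6.0%, against 0.693%), the Six4 start, an intronic D-EPSC site of Eya2 and the D-EPSC site in intron 13 of Eya4. A match is a description of the letters and not a bound site, and 3 regions are few. Many regions are narrower than 400 bp, such as the Eya4 site of 124 bp in intron 13. A string counted for such a region may lie outside its peak.

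To set the members beside the genes they work with, 24 other genes were given in the same way. They are 8 network genes (Pax2, Pax3, Pax6, Pax7, Pax8, Dach1, Dach2 and Sobp) and 16 regulators or signals of the kidney (Gdnf, Sall1, Osr1, Wt1, Hoxa11 and Hoxd11), muscle (Myog, Myod1 and Myf5), eye (Rax, Lhx2 and Mitf) and ear or placodes (Fgf3, Fgf10, Gata3 and Neurog1). A start peak was in the ESC list for 15 of the 24, in the L-EPSC list for 15 and in the D-EPSC list for 21. In all 3 lists it was present for 13, in no list for Hoxa11 and Myf5, and in D-EPSCs only for 6. Of all protein-coding genes, 50.4%, 35.1% and 3.33% fell into these groups. The 6 genes with D-EPSC start peaks only were Pax2 (1086 bp) and Pax8 (874 bp), kidney and placode regulators, Rax (326 bp), an eye field gene, Myog (253 bp), a muscle differentiation factor, Gdnf (172 bp), a ureteric bud inducer, and Osr1 (159 bp), an early kidney gene. Dach1, a corepressor of the network, had a start peak in D-EPSCs (1347 bp) and L-EPSCs (1134 bp) and none in ESCs. Of the ear and placode genes, Gata3 and Neurog1 had start peaks in each list, Fgf3 had a start peak in ESCs (216 bp) and L-EPSCs (433 bp), and Fgf10 had one in ESCs (426 bp) and D-EPSCs (1074 bp). The study chose Fgf3 and Fgf10 in part by accessibility in these cells, as it did Eya1. The window of Fgf10 held 4 ESC peaks, 1 D-EPSC peak and 2 L-EPSC peaks. Fgf10 and Mitf were the 2 of the 24 genes with fewer D-EPSC than ESC peaks, and 21 had more, whereas 6.87% of all windows had fewer and 67.3% had more. Whereas D-EPSCs alone held a start peak at 6 of these genes, no Eya or Six-family member had its start peaks in D-EPSCs only, and the difference between the sets was not tested.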

How the data were processed

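ATAC-seq was run on J1 ESCs, D-EPSCs and L-EPSCs with 2 technical replicates each. Per the methods and the submitters' processing notes, the authors trimmed reads with Trim Galore 0.6.3, aligned paired reads to mm9 with Bowtie2 2.3.5, filtered alignments by pairing and mapping quality (SAMtools 1.10) and ran MACS with its defaults. How replicates were combined, and the treatment of duplicates, the transposase shift and blacklisted regions, are not given in the sources used here. A shift moves peak edges by a few bases, and duplicates and depth change which weak peaks pass. The deposited values are peak starts and ends in 4 columns, with no score or signal, so no test across samples was possible from them. The paper did test differential accessibility between the states from the reads, with DiffBind. Its results are not part of the values given here.

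Coordinates are 1-based on mm9, with sequence from NCBIM37, the same assembly, and genes from GENCODE M1. Only chromosomes 1 to 19, X and Y entered, and peaks sharing at least 1 bp were merged. All 9 members were found. The members, the gene lists and the motifs were chosen with earlier results of these data known. The text names all members, all 24 other genes and the 3 genes nearest to Eya1 in bases covered. Start widths of the 24 are given only for genes whose lists differ at a start. Mitf, Hoxa11, Myf5, Gata3 and Neurog1 were singled out after their values were seen. One sequence that the rule selects is not reported here. Planned scores were absent, so width was used. Merging and overlap gave the same counts as bedtools 2.31.1 on simulated lists. The software was pandas 2.3.3, numpy 2.4.6 and scipy 1.17.1 under Python 3.11.15, with plots by matplotlib 3.10.9.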

Additional observations from a re-analysis of the deposited data

How the results depend on the processing

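No paired analysis was possible because the 2 technical replicates of a state share one peak list, so leaving out a replicate was not possible either. Of 63 recomputed values, 45 stayed within 1.5 times (or within their interval) and 18 moved. The base ratios were recomputed only with peak counts in place of bases, which gave 2.26 for D-EPSCs and 1.74 for L-EPSCs. Their intervals came from those same peak counts, and that of L-EPSCs (0.995 to 3.03) includes 1. Base ratios at equal list length or in other windows were not computed. Orders within single members did change with lists of equal length, at Eya4 from 3 L-EPSC peaks against 1 ESC peak to 0 against 1, and at Eya3 from 7 D-EPSC against 5 L-EPSC peaks to 4 against 5. At Eya1, counting the gene body only gave 3 peaks in each list, so D-EPSCs no longer had fewer than ESCs. The setting without sites at the starts of other genes was chosen after seeing the data and moved none. With gene bodies only, by construction, the lists had 10 ESC, 22 D-EPSC and 17 L-EPSC peaks, and regions in all 3 lists 11, in both EPSC lists only 3, in D-EPSCs only 8 and with an ESC peak but not all 3 lists 1. With 50 kb on either side, ESC peaks numbered 33, regions in all 3 lists 29, in L-EPSCs only 8 and with an ESC peak but not all 3 lists 4. Taking only the 28965 widest peaks per list, which shortens the EPSC lists, D-EPSC peaks numbered 27, regions in both EPSC lists only 5, in D-EPSCs only 6, in L-EPSCs only 2 and with an ESC peak but not all 3 lists 6. A reciprocal overlap of 50% lowered the share of ESC peaks overlapped to 47.4% by D-EPSCs and 63.2% by L-EPSCs. With depth unknown, a site missing from a list may have been too weak to call.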
